A study of Mus musculus with 4 samples.

Results

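The 85 genes described here encode the proteins of the cytosolic ribosome, or close copies of them, in mouse embryonic stem cells with and without a mitochondrial fission gene. They were chosen by name. Symbols beginning with Rpl or Rps and a digit, and Rpsa, Rplp0, Rplp1 and Rplp2, were taken where the deposited table gives a protein-coding RefSeq transcript (an identifier starting with NM_), and the kinases of ribosomal protein S6 and Rps19bp1 were left out. Of 87 such symbols, 85 averaged 1 FPKM or more across the libraries, among 10646 genes that met the same limit. FPKM is the number of fragments scaled to the length of the transcript and the size of the library, so it can be compared between genes of different length. Rpl3l, at a mean of 0.883 FPKM, lay just below the limit, and Rps27, at 0.189 FPKM, further below it. Nearly all FPKM at the Rps27 locus is listed under Rps27rt, as described below. The members nearest above it were Rpl39l and Rpl31-ps12 (means of 21.8 and 21.9 FPKM) and Rpl10l (34.7 FPKM).

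RNA was sequenced from 4 lines, 1 library each: knockouts Dnm1l-/-, Fis1-/- and Mff-/-, and the control line e14tg2a, a widely used mouse embryonic stem cell line. All lines share the strain 129/Ola, passages 30 to 35, growth on mouse embryonic fibroblast feeders and medium with serum and leukemia inhibitory factor. The labels do not say whether a knockout line is 1 clone. Dnm1l encodes the GTPase that constricts mitochondria, and Fis1 and Mff encode outer membrane proteins of mitochondrial fission, and the series asks what these genes do for mitochondrial shape and energy metabolism. With 1 library per line there is no spread between replicates, no test was made, and every difference below compares these libraries only.

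A ribosome is built from a small subunit, which reads the mRNA, and a large subunit, which joins amino acids, and each protein is needed in about equal copy number. Most of these proteins come from 1 active gene each, and mammalian genomes also carry many inactive copies made from their mRNAs. Their mRNAs are short and abundant and begin with a C followed by a run of pyrimidines, the 5′ terminal oligopyrimidine tract, through which mTOR signalling and the protein LARP1 set their translation together. In embryonic stem cells, which divide rapidly, these mRNAs are among the most abundant of all.

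The start of the transcript is a feature that the choice by name did not use. RefSeq promoters (GRCm38.p6, the assembly of mm10) of 300 bases, 250 before and 50 after the annotated start, were found for 63 of the 85 genes on the chromosome the table gives. A pyrimidine run of at least 8 bases reaching within 20 bases of the start was present in 29 of 63 (46.0%), against 18.7% of all compared genes with a promoter and 16.8% of other short-transcript genes. The first transcribed base was C in 20 of 63 (31.7%), against 14.8% of all compared genes. The motif CTTTCC, searched on both strands of the 300 bases, occurred in 49.2% of the members' promoters and in 26.3% of all promoters. These are matches of letters at annotated starts, which can be off by some bases. The 4 stretches here come from 2 paralogs and 2 standard members. The paralogs differed most between the libraries, and the standard members had lower levels in Dnm1l-/- and Fis1-/-. Their starts do not stand for paralogs and standard members as groups. A run of at least 8 bases was present in 3 of 6 paralogs with a promoter (50.0%) and in 26 of 57 other members (45.6%). Each stretch runs from 60 bases before the start to 20 after it, 5′ to 3′, and the capitals mark the longest pyrimidine run near the start.
Rpl39l (chr16:10170168-10170247, plus strand): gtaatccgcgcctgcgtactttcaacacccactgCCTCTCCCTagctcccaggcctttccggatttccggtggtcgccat
Rpl10l (chr12:66284382-66284461, minus strand): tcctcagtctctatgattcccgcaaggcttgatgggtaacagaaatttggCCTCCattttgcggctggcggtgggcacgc
Rplp2 (chr7:141447591-141447670, plus strand): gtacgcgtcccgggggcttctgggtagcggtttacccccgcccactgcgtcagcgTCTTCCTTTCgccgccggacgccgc
Rps10 (chr17:27635225-27635304, minus strand): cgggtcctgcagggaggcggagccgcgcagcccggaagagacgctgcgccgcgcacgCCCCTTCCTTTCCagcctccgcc
In Rps10 and Rplp2 the run spans the annotated start and the first transcribed base is C. In Rpl39l the marked run of 9 bases lies upstream of the start. A shorter pyrimidine run of Rpl39l, cctttcc, holds the motif CTTTCC and ends at the base just before the annotated start. In Rpl10l the longest run near the start has 5 bases. The first transcribed base is G in both Rpl39l and Rpl10l.

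The libraries were similar in estimated depth and differed in their FPKM totals. The spacing of low FPKM values gave an estimated 35300000 fragments in Dnm1l-/-, 36100000 in Fis1-/-, 35800000 in Mff-/- and 37800000 in control. The deposited values summed to 620692 FPKM in Dnm1l-/-, 597921 in Fis1-/-, 707746 in Mff-/- and 623303 in control. A member stood for a median of 60510, 57752, 73933 and 67899 estimated fragments in Dnm1l-/-, Fis1-/-, Mff-/- and control, so counting error was small for most of them. Each targeted gene, summed over coding transcripts, was lowest in its own knockout but was still listed there: Dnm1l at 19.1, 29.3, 37.5 and 24.5 FPKM, Fis1 at 96.4, 56.2, 110 and 103 FPKM, and Mff at 29.2, 34.7, 11.8 and 28.9 FPKM, each in the order Dnm1l-/-, Fis1-/-, Mff-/- and control. All 10 stem cell markers looked up were above the limit, with Pou5f1 at 913, 808, 1753 and 1208 FPKM in Dnm1l-/-, Fis1-/-, Mff-/- and control. The markers did not share a direction. Nanog, at 437, 389, 178 and 221 FPKM by the same order of libraries, lay on the other side of control from Pou5f1 for every knockout. Of the 10 markers, 5, 5 and 7 exceeded their control value, with the knockouts ordered as before. Of 15 fibroblast markers, which mark the feeder cells, 9 passed the limit. Their sum over all 15 was 216, 258, 283 and 306 FPKM in Dnm1l-/-, Fis1-/-, Mff-/- and control. Most of that sum came from Fn1 (91.3, 103, 50.1 and 107 FPKM) and Vim (90.5, 119, 147 and 170 FPKM), in the same order. Lum, Postn, Col3a1 and Pdgfrb were under 1 FPKM in every library. Others were listed in all libraries and highest in Mff-/-: Col1a1 was at 0.965, 1.07, 3.27 and 1.5 FPKM, and Col1a2 at 1.07, 1.39, 2.97 and 1.48 FPKM, in the order Dnm1l-/-, Fis1-/-, Mff-/- and control. In Mff-/- 7 of the 9 compared were above control, with a median difference of 0.68, against -0.05 in Fis1-/- and -0.22 in Dnm1l-/-.

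Ribosomal protein mRNAs held a large share of the deposited expression in every line, within 2 percentage points of each other. They made up 33.4% of all FPKM in Dnm1l-/-, 32.8% in Fis1-/-, 34.4% in Mff-/- and 34.5% in control. The median member was at 2550 FPKM in Dnm1l-/-, 2400 in Fis1-/-, 2764 in Mff-/- and 2656 in control. The median gene outside the group was at 9.95, 10.1, 9.15 and 9.85 FPKM in the same order. Of 104 genes with a mean of at least 1000 FPKM, 71 were members, and 4 members were under 100 FPKM. The most abundant was Rps12, a protein of the head of the small subunit, at 7180 FPKM in Dnm1l-/-, 6420 in Fis1-/-, 7764 in Mff-/- and 7119 in control. It was followed by Rpl41, one of the smallest proteins of the cell (mean of 5675 FPKM), the stalk protein gene Rplp1 (5158), Rps27rt (5056), Rpl23a (4984), whose protein sits at the exit of the peptide tunnel, and Rps18 (4837). Among the least abundant members outside the paralogs, Rps15a was at 227, 216, 220 and 221 FPKM in Dnm1l-/-, Fis1-/-, Mff-/- and control, on a transcript model of 5134 bases, the longest of the group.

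**Figure D1:**
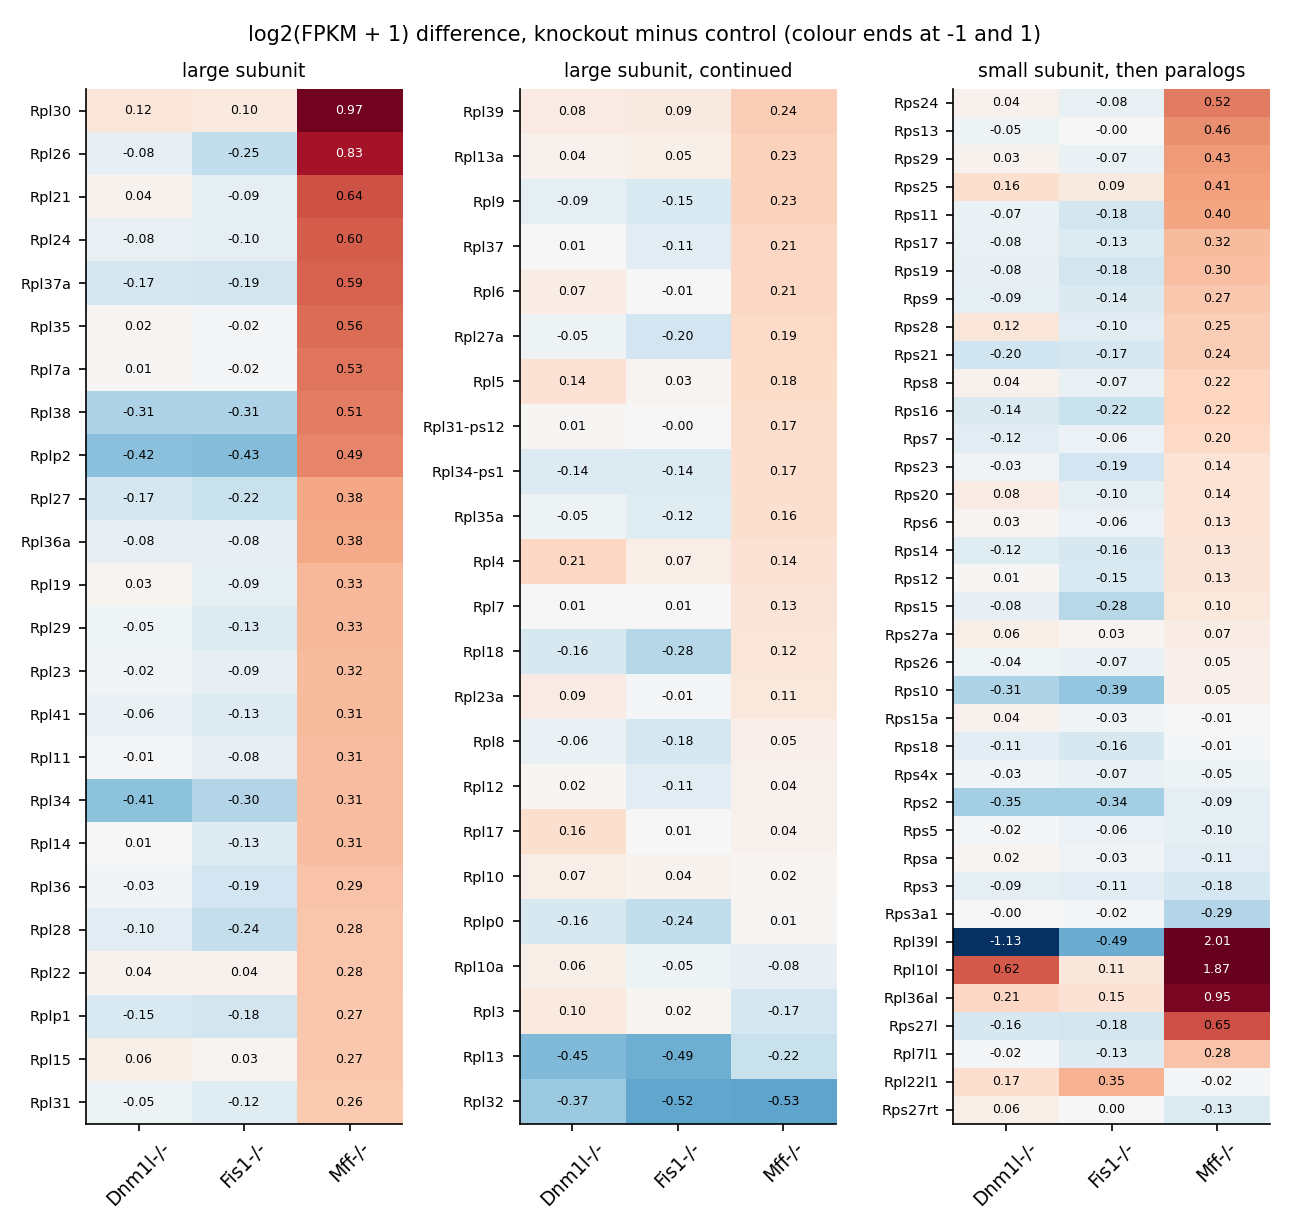
Log2(FPKM + 1) difference of 84 of the 85 members from control (columns, 1 library per knockout), for large subunit genes, small subunit genes and paralogs, each set ordered by its value in Mff-/-. Most cells are pale in the Dnm1l-/- and Fis1-/- columns, the Mff-/- column is mostly above 0, and Rpl39l, Rpl10l, Rpl36al, Rpl30 and Rpl26 are the darkest cells of that column.

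In Dnm1l-/- the ribosomal protein genes lay close to control as a group. The median log2(FPKM + 1) difference of the 85 members, Dnm1l-/- minus control, was -0.03, against 0.01 over all 10646 genes, and 37 members were above control. Of the 85 members, 1 was at least 1.5-fold higher and 1 at least 1.5-fold lower, against 6.4% and 7.23% of all genes. Both were paralogs, Rpl10l higher and Rpl39l lower. Standard members lay in a narrow band, from Rpl4, a protein that lines the narrowest part of the peptide tunnel, at 0.21 (3065 FPKM in Dnm1l-/- and 2657 in control), to Rpl13 at -0.45 (2556 and 3481 FPKM in the same order). The X-linked genes Rps4x, Rpl10, Rpl36a and Rpl39 had differences between -0.08 and 0.08.

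A small set of abundant standard members was lower in Dnm1l-/- and Fis1-/- than in control. With a smaller limit, a log2 difference of 0.32, 7 members (8.24%) were lower in each of these knockouts. This is a smaller share than the 17.6% of all genes in Dnm1l-/- and 16.9% in Fis1-/-. At the same limit 1 member was higher in each, against 16.1% and 15.4% of all genes. Of the 7 lower ones, 6 were the same in both, among them Rpl13, Rpl32, Rplp2, Rps2 and the paralog Rpl39l. The overlap of lower genes between these knockouts was not counted over all genes, so the 6 have no background to be judged by. Both comparisons use the same control library, so the shared genes are not independent evidence. Rpl32, a large subunit protein gene, was at 4380 FPKM in Dnm1l-/-, 3948 in Fis1-/-, 3932 in Mff-/- and 5665 in control. Control is the highest of the 4 libraries here and the 3 knockouts lie close to each other. Rpl13 was at 2556 FPKM in Dnm1l-/-, 2479 in Fis1-/-, 2988 in Mff-/- and 3481 in control. Control is again the highest library.

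Rps2, whose protein lies at the entrance of the mRNA channel, was at 3486 FPKM in Dnm1l-/-, 3491 in Fis1-/-, 4150 in Mff-/- and 4428 in control. Rplp2, an acidic protein of the stalk that recruits elongation factors, was at 2788 FPKM in Dnm1l-/-, 2763 in Fis1-/-, 5241 in Mff-/- and 3732 in control. For Rplp2 control lay between the knockouts, with Mff-/- above it and the others below. This order was not particular to Rplp2, and other members such as Rpl38 and Rps10 had it too. Over the 85 members, control held the highest FPKM for 9, Dnm1l-/- for 8, Fis1-/- for 1 and Mff-/- for 67.

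In Fis1-/- the group was shifted slightly below control, by about as much as other short transcripts. The median difference of the members was -0.10, against 0.01 over all genes, and 17 of 85 members were above control. Fis1-/- held the lowest FPKM of the 4 libraries for 56 members. No member was at least 1.5-fold higher, against 5.51% of all genes, and 1 was at least 1.5-fold lower, against 6.88%. Expressed as TPM, with equal totals in all libraries, the median of the members was -0.04 and that of all genes 0.06, and 0 members were then lower by 1.5-fold (0.58 on the log2 scale). Among the lowest members as deposited were Rpl32 (-0.52), Rpl39l (-0.49), Rpl13 (-0.49), Rplp2 (-0.43) and Rps10 (-0.39). Rps10, a small subunit head protein mutated in human Diamond-Blackfan anaemia, was at 2668 FPKM in Dnm1l-/-, 2517 in Fis1-/-, 3415 in Mff-/- and 3300 in control. The highest member was Rpl22l1, a paralog whose expression is held down by Rpl22 in mouse, at 0.35. Rpl22 itself was at 329, 330, 388 and 320 FPKM in Dnm1l-/-, Fis1-/-, Mff-/- and control.

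In Mff-/- most ribosomal protein genes had higher FPKM than in control, and so did other short transcripts. The median difference of the members was 0.22, against -0.07 over all genes, and 70 of 85 members were above control. Of the 85, 9 were at least 1.5-fold higher and 0 at least 1.5-fold lower, against 10.7% and 13.4% of all genes. As TPM, where 86 members pass the limit of 1, the median of the members was 0.04 and the counts were 5 higher and 2 lower, with Rpl32 (-0.71) the lowest. That scaling shifted the median of all genes by -0.16, and the members stayed above it by 0.27, against 0.29 as deposited. The size of the group's difference from control thus depended on the scale, while it stayed above 0 and its place above the median gene was similar on both. On the deposited scale, 9 members reached 1.5-fold: Rpl39l, Rpl10l, Rpl30, Rpl36al, Rpl26, Rps27l, Rpl21, Rpl24 and Rpl37a, of which 4 are paralogs. At the smaller limit of 0.32, 22 members were higher and 2 lower, against 22% and 29.9% of all genes. Past 2-fold, 2 were higher and 0 lower in Mff-/-, against 2.56% and 2.95% of all genes. In Fis1-/- 0 members passed 2-fold on either side, against 1.71% and 1.89%, and in Dnm1l-/- 0 were higher and 1 was lower, against 2.43% and 2.05%.

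**Figure D2:**
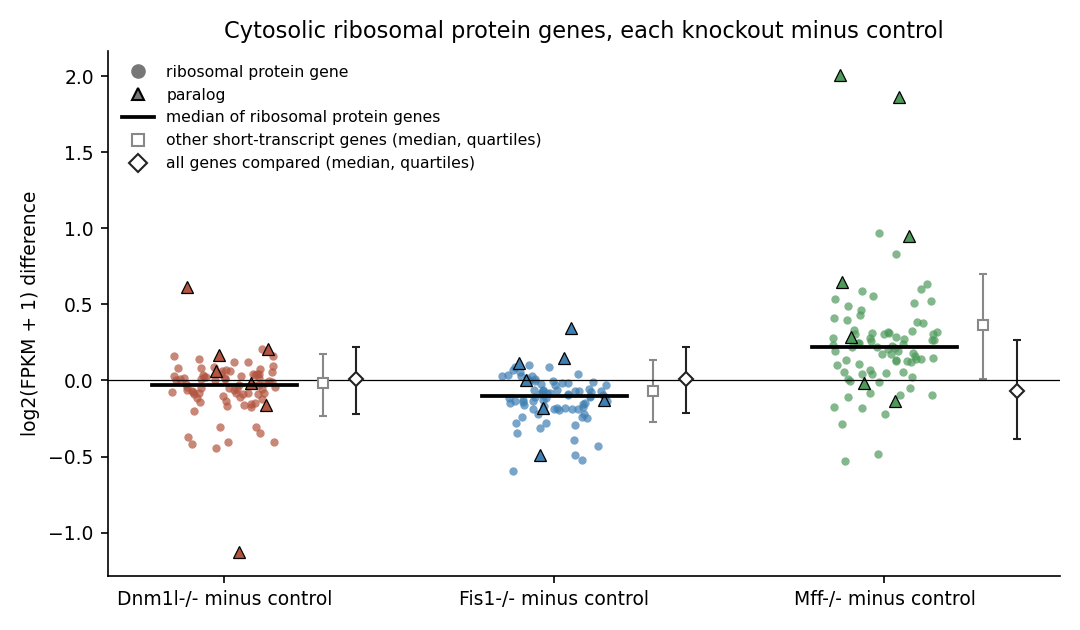
Log2(FPKM + 1) differences of the 85 members in each knockout (points, with triangles for paralogs and a bar at the median), beside the median and quartiles of other short-transcript genes and of all genes compared. The median bars lie at -0.03 in Dnm1l-/-, -0.10 in Fis1-/- and 0.22 in Mff-/-, and in Mff-/- the bar lies between the median of all genes (-0.07) and that of other short-transcript genes (0.37).

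Transcript length separates these genes from most others, and it was related to the differences in Mff-/-. The members had a median length of 684 bases, against 2709 for other genes. The 1733 other genes within the 10th to 90th percentile of the members' lengths (444 to 1411 bases) had a median difference of 0.37 in Mff-/-, -0.07 in Fis1-/- and -0.01 in Dnm1l-/-. The members thus lay below other short-transcript genes by 0.15 in Mff-/-, and within 0.03 of them in Fis1-/- and 0.01 in Dnm1l-/-. Among other short-transcript genes with a mean of at least 100 FPKM, which are closer to the members in abundance, the median in Mff-/- was 0.56 over 316 genes. Whether a member differed from genes of its own length was also counted in bins of length: 68 of 84 members lay below the median of the other genes of their bin in Mff-/-, 55 in Fis1-/- and 52 in Dnm1l-/-. The median gap of a member to its bin was -0.27 in Mff-/-, -0.04 in Fis1-/- and -0.02 in Dnm1l-/-, so the members lay further below genes of their own length in Mff-/-.

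By bin, the medians of other genes in Mff-/- were lower at greater lengths, and those of the members lay between 0.08 and 0.28 without a steady order. At 400 to 600 bases the median difference in Mff-/- was 0.27 for 30 members and 0.59 for 183 other genes. At 600 to 800 bases it was 0.22 for 18 members and 0.53 for 258 other genes. At 1000 to 1500 bases it was 0.19 for 11 members and 0.25 for 1151 other genes. From 3000 to 5000 bases, where there was no member, 2993 other genes had a median of -0.21. Across other genes of all lengths the Spearman correlation of length with the Mff-/- difference was -0.45 (10561 genes). Within the narrower range of the 1733 other short-transcript genes it was -0.24. Across the 85 members, of which 67 lie in that range, it was -0.23, all from the same libraries. Differences were also related to GC content in the other knockouts: across 83 members with a known GC content, the Spearman correlation was -0.30 in Dnm1l-/-, -0.36 in Fis1-/- and 0.01 in Mff-/-. Across 10513 other genes it was -0.33, -0.39 and 0.14 in the same order. The part of length and base composition in these differences was not tested.

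**Figure D3:**
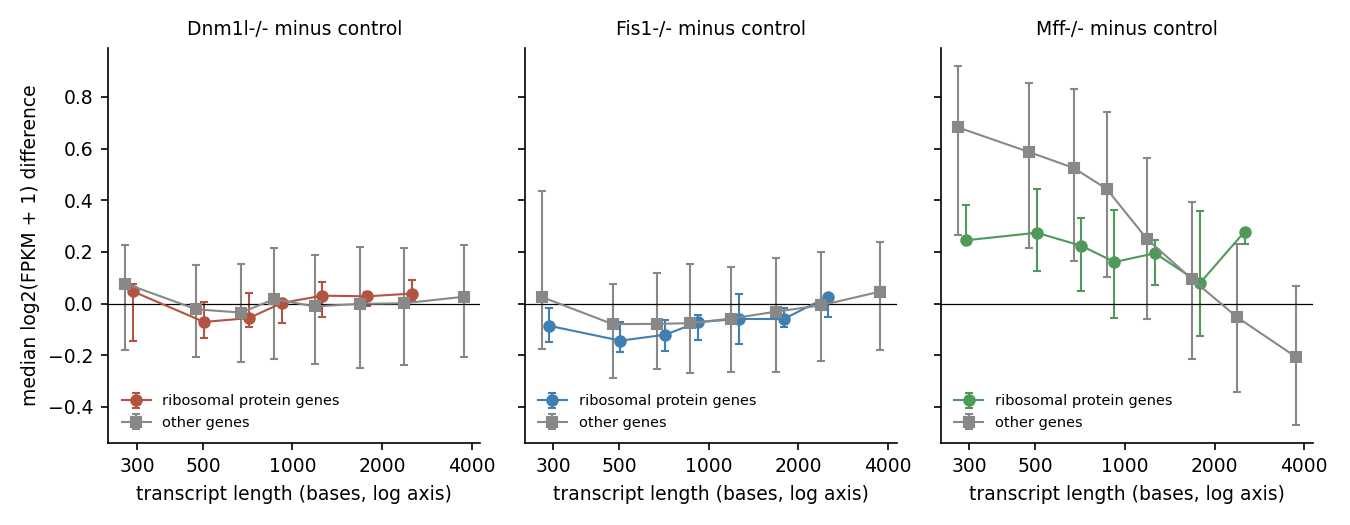
Median log2(FPKM + 1) difference from control against transcript length (log axis) in each knockout, for ribosomal protein genes and for other genes, in bins with at least 3 genes and with bars for the quartiles. In Mff-/- the other genes run from 0.68 in the shortest bin to -0.21 in the longest, while ribosomal protein genes stay between 0.08 and 0.28, and in Dnm1l-/- and Fis1-/- both lines stay near 0.

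Large and small subunit genes had similar medians in Dnm1l-/- and Fis1-/-, and in Mff-/- the large subunit median was higher. The 48 large subunit genes had median differences of -0.03, -0.11 and 0.25 in Dnm1l-/-, Fis1-/- and Mff-/-. They include the pseudogene symbols Rpl31-ps12 and Rpl34-ps1, which the table lists with coding transcripts, and Rpl34-ps1 is listed at the locus of Rpl34. The 30 small subunit genes had medians of -0.04, -0.10 and 0.14 in the same order of knockouts. In Mff-/- 5 of the 48 and 0 of the 30 were at least 1.5-fold higher, against 10.7% of all genes. In Mff-/- the lowest small subunit genes were Rps3a1 (2296 FPKM in Mff-/- and 2806 in control) and Rps3, whose protein lies at the mRNA entry channel (1014 and 1148). The highest were Rps24 (3819 in Mff-/- and 2660 in control), Rps13 (2227 and 1614), Rps29 (5219 and 3880) and Rps25, needed for translation from some viral entry sites (2473 and 1861). Among large subunit genes Rpl3, which shapes the peptidyl transferase centre, was at 1921 FPKM in Mff-/- and 2169 in control.

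Other large subunit genes lay on the higher side in Mff-/-. Rpl21 was at 808 FPKM in Dnm1l-/-, 741 in Fis1-/-, 1223 in Mff-/- and 787 in control. Rpl24, the gene of the mouse belly spot and tail mutation, was at 1440, 1421, 2309 and 1519 FPKM in the same order, and Rpl37a at 1485, 1469, 2510 and 1671. In these 3 genes Mff-/- stood apart and the other libraries lay close together. Rpl38, which is needed for the translation of Hox mRNAs in mouse embryos, was at 2593 FPKM in Dnm1l-/-, 2585 in Fis1-/-, 4562 in Mff-/- and 3207 in control.

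Functional groups within the ribosome followed the same order of medians. The stalk and its base (Rplp0, Rplp1, Rplp2 and Rpl12) had a median of -0.16 in Dnm1l-/-, -0.21 in Fis1-/- and 0.16 in Mff-/-, with all 4 below control in Fis1-/- and all 4 above it in Mff-/-. Rpl5 and Rpl11, which carry 5S rRNA and bind the p53 regulator MDM2 when free, were at 1134 and 2704 FPKM in Dnm1l-/-, 1047 and 2575 in Fis1-/-, 1165 and 3375 in Mff-/-, and 1028 and 2725 in control. Proteins around the tunnel exit, where nascent chains meet targeting factors, had medians of 0.03, -0.02 and 0.27 over 8 genes in Dnm1l-/-, Fis1-/- and Mff-/-. The 14 genes of the small subunit head had medians of -0.05, -0.12 and 0.13 in the same order. Of 18 genes mutated in human Diamond-Blackfan anaemia, 17 were compared, with medians of -0.04, -0.08 and 0.27. None of these groups had a member past 1.5-fold except Rpl26 in Mff-/-.

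At 4 loci the table lists a retrogene or pseudogene identifier on top of the ribosomal protein gene, and the FPKM of the locus is divided between them. RefSeq places these copies on other chromosomes. Gm15772, a pseudogene of Rpl26 that RefSeq puts on chromosome 5, is listed on the Rpl26 gene on chromosome 11 (68901589 to 68904534, mm10). It was at 4096 FPKM in Dnm1l-/-, 3936 in Fis1-/-, 4210 in Mff-/- and 3996 in control, and Rpl26 itself was at 314, 280, 591 and 332 FPKM in the same order. Rpl26, a protein near the tunnel exit, thus carried a small part of its locus. Its difference in Mff-/- was 0.83 alone and 0.15 with both rows summed.

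Rpl30, a small protein of the large subunit, showed the same division. Gm12191, which RefSeq puts on chromosome 11, is listed on the Rpl30 gene on chromosome 15 (34440506 to 34443233) at 2796 FPKM in Dnm1l-/-, 2785 in Fis1-/-, 2849 in Mff-/- and 2823 in control. Rpl30 was at 171, 169, 310 and 158 FPKM in the same order, a difference of 0.97 in Mff-/- that became 0.08 for the sum. Rpl34-ps1, which RefSeq puts on chromosome 6, is listed on the Rpl34 gene on chromosome 3 at 2604, 2603, 3225 and 2865 FPKM in Dnm1l-/-, Fis1-/-, Mff-/- and control. Rpl34 was at 296, 320, 487 and 393 FPKM, and the sum of both had differences of -0.17, -0.16 and 0.19, against -0.41, -0.30 and 0.31 for Rpl34 alone.

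Little of the FPKM at the Rps27 locus is listed under Rps27 itself. Rps27rt, a retrogene that RefSeq puts on chromosome 9, is listed on the Rps27 gene on chromosome 3 (90212667 to 90213647) at 5337 FPKM in Dnm1l-/-, 5113 in Fis1-/-, 4661 in Mff-/- and 5111 in control. The coding transcript of Rps27 was at 0.111, 0.0404, 0.566 and 0.0375 FPKM in the same order. A noncoding Rps27 transcript, NR_033727, was at 8.34, 7.68, 9.18 and 5.85 FPKM. The value under Rps27rt thus makes up nearly all of the FPKM listed at that locus. With the rows of each locus summed, Rpl26 and Rpl30 left the set of members past 1.5-fold in Mff-/-, and the median of the group there was 0.21. GENCODE vM21 names 291 pseudogenes after 59 of the members, so reads of other members may be divided in ways the table does not show.

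**Figure D4:**
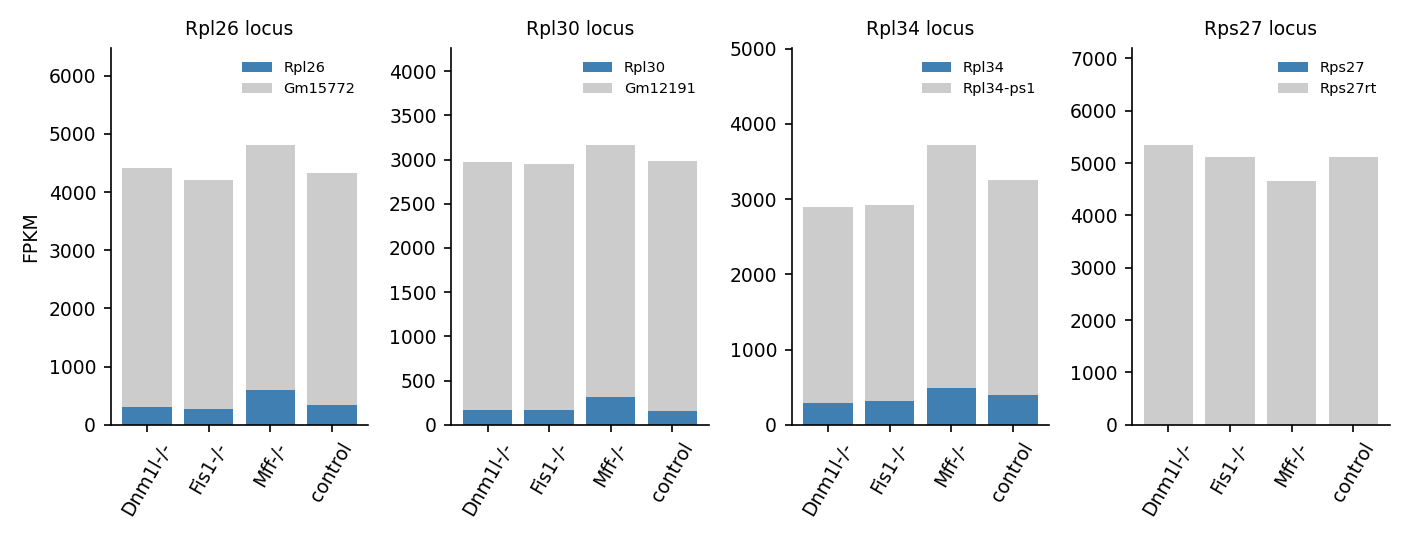
FPKM in each library at 4 loci where the table lists 2 identifiers on top of each other, with the ribosomal protein gene in blue and the retrogene or pseudogene identifier in grey, stacked. The blue part is under 600 FPKM in every bar, and the whole bars differ between libraries by less than the blue parts do in proportion at the Rpl26 and Rpl30 loci.

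Paralogs, second copies of a ribosomal protein gene that are often used in particular tissues, held the most divergent members. Of 10 listed, 7 were compared, with median differences of 0.06 in Dnm1l-/-, 0.00 in Fis1-/- and 0.65 in Mff-/-. Rps27rt was itself the middle gene for Dnm1l-/- and Fis1-/-, and its row holds nearly all FPKM at the Rps27 locus. Those medians thus rest on a row listed on a standard gene and do not describe paralogs as a group. Rpl39l, on chromosome 16 (10170228 to 10174911, mm10), encodes a tunnel protein of male germ cell ribosomes in mouse. It was at 5.76 FPKM in Dnm1l-/-, 9.48 in Fis1-/-, 58.4 in Mff-/- and 13.7 in control. Mff-/- lay far above the other libraries, and both other knockouts lay below control. Its 95% exact Poisson intervals, from estimated fragments and for counting error only, were 4.91 to 6.71 in Dnm1l-/-, 8.40 to 10.7 in Fis1-/-, 55.6 to 61.2 in Mff-/- and 12.5 to 15.1 in control, and none of them overlap. The log2 differences were -1.13, -0.49 and 2.01, and it was the only member past 2-fold in Dnm1l-/-, where 2.05% of all genes were lower by 2-fold. Rpl39, the X-linked standard copy, was at 2812, 2827, 3146 and 2656 FPKM in Dnm1l-/-, Fis1-/-, Mff-/- and control, far above Rpl39l in each.

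Rpl10l, a retrogene on chromosome 12 (66283379 to 66284401) with 1 exon, replaces X-linked Rpl10 in mouse spermatocytes. It was at 29.2 FPKM in Dnm1l-/-, 20.3 in Fis1-/-, 70.8 in Mff-/- and 18.7 in control. It was the only gene besides Rpl39l past 2-fold in Mff-/- among the members (log2 difference 1.87), where 2.56% of all genes were higher by 2-fold. Rpl10 was at 2915, 2854, 2829 and 2785 FPKM in Dnm1l-/-, Fis1-/-, Mff-/- and control, within a narrow range in all libraries. Reads shared with Rpl10 could be divided between the copies, and Rpl10l is uncertain for that reason.

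The other paralogs were more abundant and differed less. Rpl36al, the autosomal copy of X-linked Rpl36a, was at 837 FPKM in Dnm1l-/-, 802 in Fis1-/-, 1398 in Mff-/- and 724 in control, and Rpl36a at 1811, 1809, 2494 and 1917. Rps27l, a p53 target, was at 408, 402, 716 and 457 FPKM in Dnm1l-/-, Fis1-/-, Mff-/- and control. Rpl22l1 was at 440, 498, 386 and 392 FPKM, highest in Fis1-/-, and Rpl7l1, a relative of Rpl7, at 84.1, 77.5, 104 and 85.0. Less the median of other short-transcript genes in Mff-/- (0.37), Rpl39l and Rpl10l stayed higher by over 1.5-fold. On that scale Rpl36al lay just under the limit (0.58), and Rps27l did not reach it (0.28). Rpl36al (517 bases) and Rps27l (464 bases) are at the short end of that set. Other genes of 400 to 600 bases had a higher median in Mff-/-, 0.59, against 0.95 for Rpl36al and 0.65 for Rps27l as deposited.

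**Figure D5:**
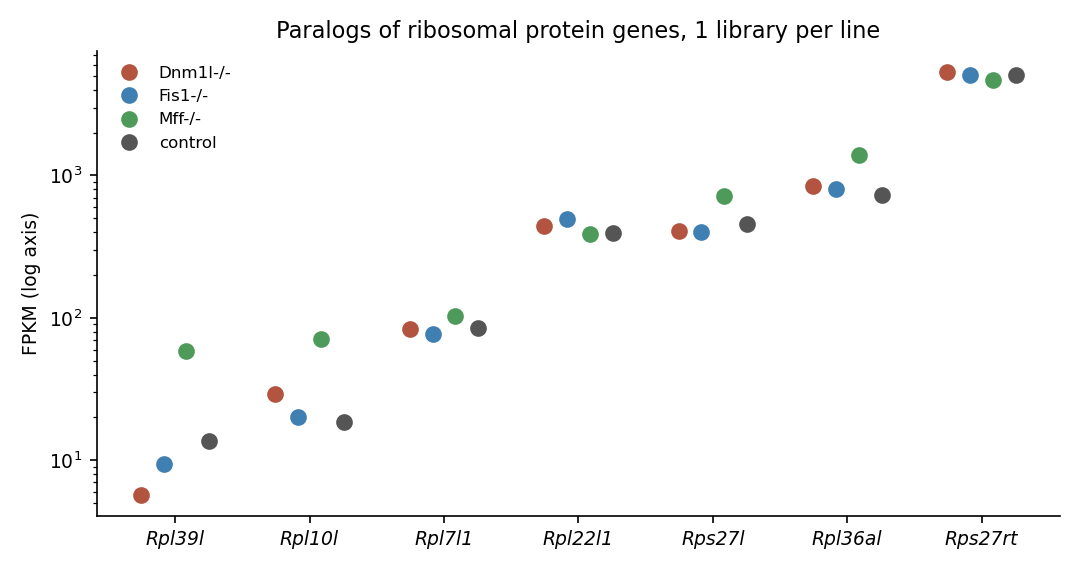
FPKM (log axis) of the 7 compared paralogs in each library, 1 point per library. In Rpl39l, Rpl10l, Rps27l, Rpl36al and Rpl7l1 the Mff-/- point is the highest, and in Rpl39l the Dnm1l-/- point is the lowest.

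Among the 9 members with more than 1 coding transcript, the division between transcripts differed most for Rps24. Its transcript NM_207634 held 68.3% of the gene's FPKM in Dnm1l-/-, 71.9% in Fis1-/-, 83.6% in Mff-/- and 70.3% in control. NM_011297 held 30.7%, 27.1%, 15.6% and 28.6% in the same order. In FPKM, NM_207634 was at 3191 in Mff-/- and 1871 in control, and NM_011297 at 597 in Mff-/- and 762 in control, so the summed gene hides an opposite order. For Rpl35a, NM_001130485 held 84.3%, 83.0%, 75.5% and 84.9% in Dnm1l-/-, Fis1-/-, Mff-/- and control. For Rpl38, the shortest transcript NM_001048058 held 32.6%, 30.2%, 42.5% and 37.8%. These shares come from the authors' division of fragments among overlapping transcripts, and the depth behind each is not known.

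Genes that work with the ribosome were looked at as lists. Of the proteins made outside the naming rule, Fau, which encodes a small subunit protein, was at 2044 FPKM in Dnm1l-/-, 1791 in Fis1-/-, 2581 in Mff-/- and 1950 in control. Gnb2l1, now called Rack1, a scaffold on the small subunit, was at 2404, 2288, 1904 and 2403 FPKM. Of 16 other mRNAs with a terminal oligopyrimidine tract, the medians were 0.10, 0.08 and 0.26 in Dnm1l-/-, Fis1-/- and Mff-/-. In this list 0 passed 1.5-fold in Dnm1l-/- and Fis1-/-. In Mff-/- 2 of 16 (12.5%) were higher and 1 (6.25%) lower, against 10.7% and 13.4% of all genes. The elongation factor gene Eef2 was at 798 FPKM in Mff-/- and 1668 in control, and Eef1a1 at 5762 and 8276, both opposite to the subunit gene Eef1d at 429 and 186. The members' own medians did not separate by tract: in Mff-/- they were 0.26 for 29 members with a long pyrimidine run and 0.22 for 34 with a shorter one.

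Ribosome assembly genes had medians of 0.06 in Dnm1l-/-, 0.10 in Fis1-/- and 0.31 in Mff-/- over 59 genes. In Mff-/- 10 of them were at least 1.5-fold higher and 0 lower, against 10.7% and 13.4% of all genes. In Dnm1l-/- and Fis1-/- 1 was higher and 0 lower, against 6.4% and 7.23% of all genes in Dnm1l-/- and 5.51% and 6.88% in Fis1-/-. In both the gene was Nmd3, the adaptor that exports the large subunit from the nucleus, at 124 FPKM in Dnm1l-/-, 126 in Fis1-/-, 78.5 in Mff-/- and 81.6 in control. Nop10, of the box H/ACA particles that modify rRNA, was at 303 FPKM in Mff-/- and 144 in control, and Nop56, of the box C/D particles, at 412 and 228. Regulators of ribosome synthesis had medians of -0.11, 0.00 and -0.15 over 15 genes. Of the 15, 0 were at least 1.5-fold higher and 2 lower in Mff-/-, against 10.7% and 13.4% of all genes. In Dnm1l-/- 0 were higher and 1 lower, and in Fis1-/- 1 and 2, beside the shares of all genes given above. Eif4ebp2, a brake on cap-dependent translation, was at 19.5 FPKM in Mff-/- and 39.3 in control. The more abundant Eif4ebp1 lay on the other side, at 516 and 440 FPKM. Mtor was at 4.88 and 8.62, and Mycn at 40.3 in Fis1-/- and 25.1 in control.

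Mitochondrial ribosomal protein genes, the most similar family, lay higher in Mff-/- than the cytosolic ones. Their 76 genes had medians of -0.01 in Dnm1l-/-, -0.10 in Fis1-/- and 0.52 in Mff-/-, against -0.03, -0.10 and 0.22 for the cytosolic family. In Mff-/- 34 of 76 were at least 1.5-fold higher, against 9 of 85 of the cytosolic family, 10.7% of all genes and 33.3% of other short-transcript genes, and these differences were not tested. Their median level was 61.2 FPKM in Mff-/- and 42.5 in control, and their median transcript length 1043 bases. Libraries of whole cultures cannot tell fewer cells of a type from less RNA per cell, and this holds for each difference above. The Mff-/- differences of the fibroblast markers Thy1 (11.9 FPKM in Mff-/- and 4.10 in control) and S100a4 (44.0 and 6.70) and of Fn1 (50.1 and 107) lay on opposite sides, and their part in the result was not tested.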

How the data were processed

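The authors deposited FPKM values for RefSeq transcripts on mm10, 1 column per library, per the file headers, with transcript lengths and other positional columns. FastQC 0.11.5, STAR 2.5.2b, StringTie 1.3.3b and R 3.6.1 are named, without role, per the submitters' processing notes. The annotation release and the use of strand in quantification are not stated, and the labels name both a stranded and an unstranded TruSeq kit. The Drp1 column was matched to Dnm1l-/- by the protein's name. Starts in the table lay 1 below RefSeq for 14458 genes equal for 774 and otherwise different for 8745, and 1 was added.

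FPKM was summed over coding transcripts of a symbol, and genes with a mean of 1 FPKM or more were compared as log2(FPKM + 1), knockout minus control, which understates differences of low genes. Counts past 1.5-fold describe these libraries. No test was possible with 1 library per group. Members and lists were chosen with earlier results of these data known. Genes were named by rule: all compared paralogs, the 6 highest and 6 lowest members per knockout, the 6 with the largest range, the 6 most abundant, those at the limit, and members of small lists; others named, such as Rpl21, Rpl24, Rpl37a, Rpl38, Rps2 and Rps24, were chosen after their values were seen. Depth was estimated from low values of single-transcript genes of at least 3000 bases, of which 89.3% to 92.2% lay within 0.15 of a whole multiple. Values of 1 member and of 1 related gene are not reported here, though both entered the counts and medians. Promoter sequences come from RefSeq (GRCm38.p6). GC content comes from GENCODE vM21 transcripts. Calculations used Python 3.11.15, pandas 2.3.3, NumPy 2.4.6 and SciPy 1.17.1 and were tested on simulated data.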

Additional observations from a re-analysis of the deposited data

Results flagged for a closer look

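Rps4l, a transcribed copy of the X-linked small subunit gene Rps4x on chromosome 6 (148354656 to 148355596, mm10), has only a noncoding transcript in the table, NR_003634, and so was in no comparison. It was at 516 FPKM in Dnm1l-/-, 505 in Fis1-/-, 896 in Mff-/- and 523 in control. It was flagged as a signal above control outside the main measurement, with a log2(FPKM + 1) difference of 0.77 in Mff-/-, and Dnm1l-/- and Fis1-/- lay at -0.02 and -0.05. Rps4x was at 2760, 2689, 2725 and 2816 FPKM in Dnm1l-/-, Fis1-/-, Mff-/- and control. Reads may be shared between the copies, and this was not tested.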

How the results depend on the processing

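No paired analysis was possible because each group has 1 library, and leaving out a library was not possible for the same reason. The Mff-/- median of the members (0.22) was 0.037 in TPM, 0.035 at the mean total of the 4 libraries and 0.033 with other genes set to a common total. In each of these settings 5 members were at least 1.5-fold higher and 2 lower in Mff-/- (9 and 0 as deposited), and 0 were lower in Fis1-/- (1 as deposited). Without paralogs 5 members were higher in Mff-/-, 0 were higher and 0 lower in Dnm1l-/-, and the standard deviation of Mff-/- differences was 0.25 instead of 0.37. At a log2 limit of 0.32 instead of 0.58, 7 were lower in Dnm1l-/-, 1 was higher and 7 lower in Fis1-/-, and 22 were higher and 2 lower in Mff-/-. At 2-fold 0 were higher in Dnm1l-/-, 0 lower in Fis1-/- and 2 higher in Mff-/-. Relative to other short-transcript genes, a setting chosen after seeing the data, 3 were higher and 4 lower in Mff-/- and 0 lower in Fis1-/-. With the length range widened to the shortest and longest member, which takes in long genes, the median of other genes in Mff-/- was -0.016 instead of 0.37 and the members lay 0.23 above it instead of 0.15 below. Among short-transcript genes of at least 100 FPKM that gap was -0.34. As a share of FPKM times length the members made up 15.3% in Dnm1l-/-, 14.7% in Fis1-/-, 17.4% in Mff-/- and 15.9% in control. Of 324 values of named members under alternatives, 22 changed side of 1.5-fold and none reversed a difference past it, and the causes were not tested except where rows of 1 locus were summed, which was chosen after seeing the data. Depth limits only the low members, Rpl39l with 164 estimated fragments in Dnm1l-/- among them.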
